A study of Rattus norvegicus and Mus musculus with 74 samples.

Results

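The comparison described here was H3K9Ac in the brain cortex of mice exposed before birth to poly I:C and given vehicle, against that of control mice. It used 6 of the 74 samples of the series, 3 libraries per group. Its members were the 12747 regions, of 60110 in the mouse table, that held a called H3K9Ac interval in 3 or more of the 9 mouse H3K9Ac libraries. In all, 15586 regions held one in at least 1 of these libraries. All mice were C57BL/6J per the labels. The poly I:C vehicle group had been exposed to poly I:C by prenatal injection and was later given vehicle; poly I:C is synthetic double-stranded RNA and mimics a viral infection of the dam. The poly I:C TAK-418 group, 3 libraries exposed in the same way and given TAK-418, which inhibits LSD1, an enzyme that removes methyl groups from H3K4, entered the fit only to help estimate the spread. The control group was healthy and also received vehicle. Neither the age and sex of the mice nor the dose of either agent is given in the sources used here, and no label says whether each library was made from its own animal. The p-values therefore reflect only how these libraries vary, and part of that variation may be technical.

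H3K9Ac is the acetylation of lysine 9 on histone H3. Histone acetyltransferases such as those encoded by Kat2a and Kat2b place it and histone deacetylases remove it. It is found at promoters of active genes and at active enhancers and, in neurons, it is known to change at activity-regulated genes such as Fos. It usually lies beside H3K4me3, the methylation mark of active promoters.

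Signal was lower in the poly I:C vehicle group across nearly all of the regions, and no region was called once the libraries were put on the same median. The summed mean signal over the tested regions was 63495.1, 44869.8 and 57581.9 in vehicle libraries 1, 2 and 3, against 106638.0, 85078.6 and 66803.0 in control libraries 1, 2 and 3. The groups did not overlap, but vehicle 1 and control 3 lay closer to each other than control 3 did to control 1. The ratio of vehicle to control was 0.642, and an exact two-sided permutation test gave p = 0.1, the smallest value that 3 against 3 allows. The median region had a log2(signal + 1) of 2.53, 2.11 and 2.41 in vehicle libraries and 3.16, 2.89 and 2.60 in control libraries (mean 2.35 ± 0.22 and 2.88 ± 0.28, SD, n = 3). The TAK-418 libraries, at 2.51, 2.48 and 2.13, lay within the range of the vehicle libraries. Adding 1 before the logarithm makes the change of regions with low signal look smaller than it is.

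**Figure D1:**
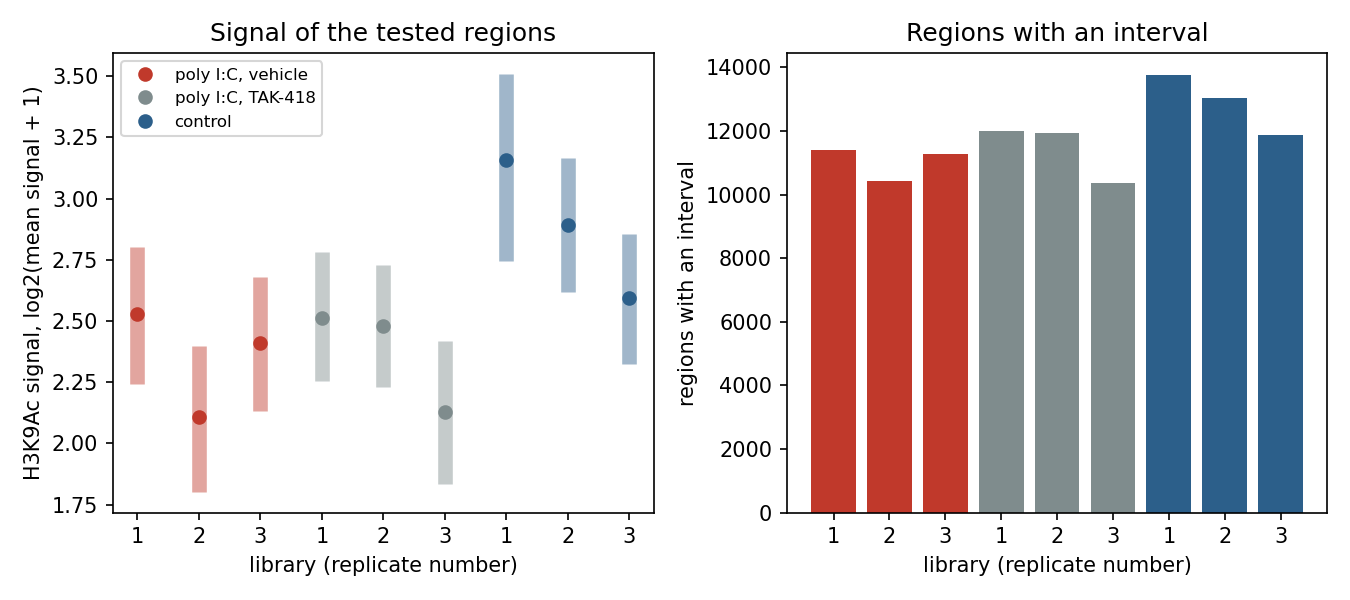
H3K9Ac in the 9 mouse libraries. Left, the median (point) and quartiles (bar) of log2(mean signal + 1) over the 12747 tested regions; right, the number of regions with a called interval. The control medians (2.60 to 3.16) lie above the vehicle medians (2.11 to 2.53), and of the medians that of control 1 is highest and that of vehicle 2 lowest.

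The number of regions with a called interval followed the signal. Intervals were called in 11404, 10423 and 11273 regions in vehicle libraries and in 13767, 13040 and 11874 regions in control libraries (exact permutation p = 0.1). The regions called covered 282.1, 258.8 and 279.9 Mb in vehicle libraries and 316.9, 309.2 and 293.7 Mb in control libraries, and their mean signal was 5.19, 3.83 and 4.73 in vehicle and 8.13, 6.68 and 5.37 in control libraries. Regions of the mouse table with no H3K9Ac interval in any library had a median signal of 1.46, 1.26 and 1.40 in vehicle libraries and 1.58, 1.62 and 1.46 in control libraries. There the groups differed by less in size and overlapped at vehicle 1 and control 3 (exact p = 0.2). How the libraries were scaled against each other is not given in the sources used here, so a lower H3K9Ac level in exposed cortex and a difference in the yield or scaling of the libraries cannot be told apart. In bulk cortex, fewer cells carrying the mark and less mark per cell cannot be told apart either.

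Region by region, 12744 of the 12747 had a lower mean in the vehicle group. With the values as deposited, limma called 8159 regions lower and 0 higher at a Benjamini-Hochberg adjusted p under 0.05, which is 64.0% and 0.0% of those tested. In 8982 regions (70.5%) every vehicle library was below every control library. The median log2 change was -0.53, and the middle 90% of regions lay between -0.72 and -0.29. The calls were close to the threshold, with adjusted p between 0.032 and 0.04999. limma treats regions as separate when it estimates the spread, although much of the change was a shift common to whole libraries. The calls are therefore not separate results, and the exact permutation test of summed signal over libraries gave p = 0.1. As deposited, the fit also pooled the spread over regions so fully that its p-values follow a normal distribution. They treat the spread as known almost exactly, although it was estimated from 9 libraries. Every adjusted p and every number of regions called as deposited rests on this. The count rested on single libraries: it was 0 without vehicle 2, vehicle 3, control 1, control 2 or TAK-418 2, 4326 without TAK-418 1 and 11882 without control 3. The median change was -0.39 without control 1 and -0.41 without vehicle 2.

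**Figure D2:**
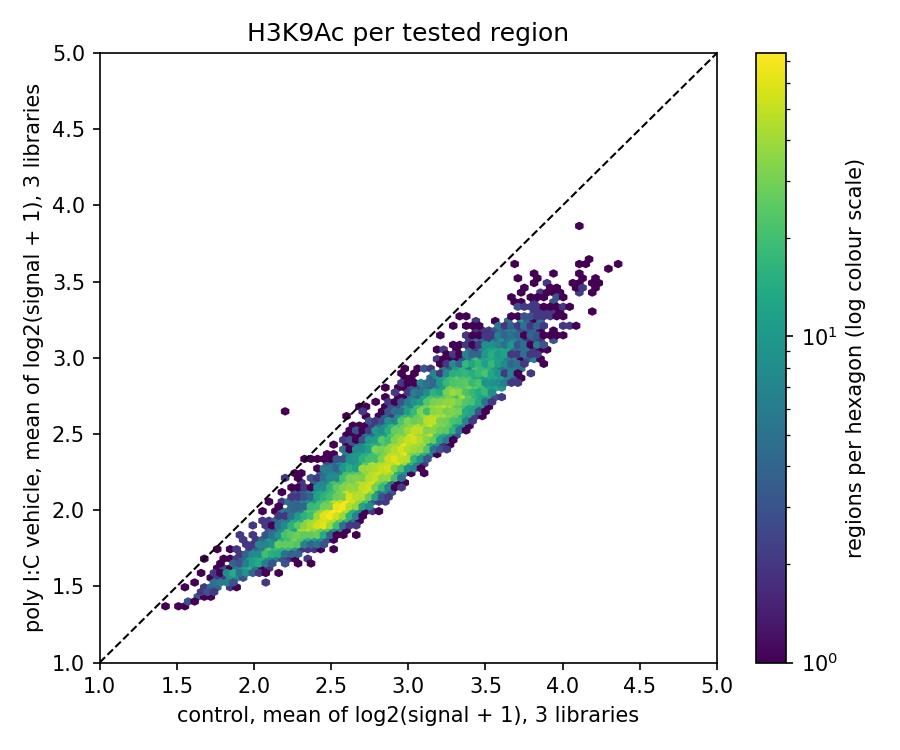
Mean log2(signal + 1) of each tested region in the 3 poly I:C vehicle libraries (vertical) against the 3 control libraries (horizontal), coloured by the number of regions per hexagon on a log scale; the dashed line marks equal signal. Nearly the whole cloud lies below the line by about the same distance, with a median log2 change of -0.53, and the single point well above it is the region of Zfp934.

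The 10 called regions with the largest decreases were mostly promoters with a CpG island, as were 8445 of the 12747 tested regions. The rule that chose them admitted only regions in which every vehicle library was below every control library, so that the groups do not overlap in them is not a result. In the region of Map4k2, a kinase of the stress-activated kinase pathway, which also lists Men1, a subunit of H3K4 methyltransferase complexes (chr19:6329200-6357399 on mm10), the signal was 8.28, 4.37 and 7.20 in vehicle libraries and 15.1, 13.4 and 10.6 in control libraries. Vehicle 2 was the lowest of the vehicle libraries and control 1 the highest of the control libraries. The log2 change was -0.91 ± 0.27 (SE; limma adjusted p = 0.032). TAK-418 libraries had 9.32, 8.79 and 4.26 in this region, between the vehicle and control means in the first and second and at the level of vehicle 2 in the third.

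In the region of Bcar1, an adaptor protein of focal adhesions (chr8:111700000-111748999), the signal was 8.79, 4.55 and 7.89 in vehicle libraries and 16.3, 14.6 and 10.7 in control libraries. The region of Dot1l, the H3K79 methyltransferase (chr10:80746200-80765399), had 8.84, 3.95 and 7.74 in vehicle libraries and 15.9, 13.8 and 9.86 in control libraries. The changes were -0.90 ± 0.27 at Bcar1 and -0.89 ± 0.27 at Dot1l, and without vehicle 2 the change at Dot1l was -0.59. The region of Wbp1 and Mogs, the glucosidase that starts trimming of N-linked glycans (chr6:83112600-83126599), had one of the highest H3K9Ac levels of the table, with 11.7, 6.26 and 9.76 in vehicle libraries and 22.8, 17.7 and 13.1 in control libraries.

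Kinase and phosphatase genes were among the other regions. At Dusp8, a phosphatase of stress-activated kinases (chr7:142074000-142101799), the signal was 10.1, 5.21 and 8.88 in vehicle libraries and 19.0, 15.4 and 12.0 in control libraries. At Stk11, the kinase LKB1 that activates AMPK (chr10:80112800-80124599), it was 10.8, 5.25 and 9.49 in vehicle libraries and 19.2, 16.9 and 12.2 in control libraries. The log2 change was -0.88 in each (SE 0.28 for both). The other regions chosen by the rule were those of Aph1a, a subunit of gamma-secretase (-0.87), of Adssl1, a muscle-type adenylosuccinate synthase, listed with the kinase gene Akt1 (-0.86), of Ahdc1 (-0.86) and of Rgs3, a regulator of G protein signalling (-0.85). The Rgs3 region was the only one of the 10 inside a gene and away from its promoter; it had 6.20, 3.76 and 5.60 in vehicle libraries and 11.7, 10.5 and 8.13 in control libraries. All 10 had the adjusted p of 0.032, the lowest in the table, and after median centring their changes were between -0.37 and -0.32 with an adjusted p of 0.602.

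**Figure D3:**
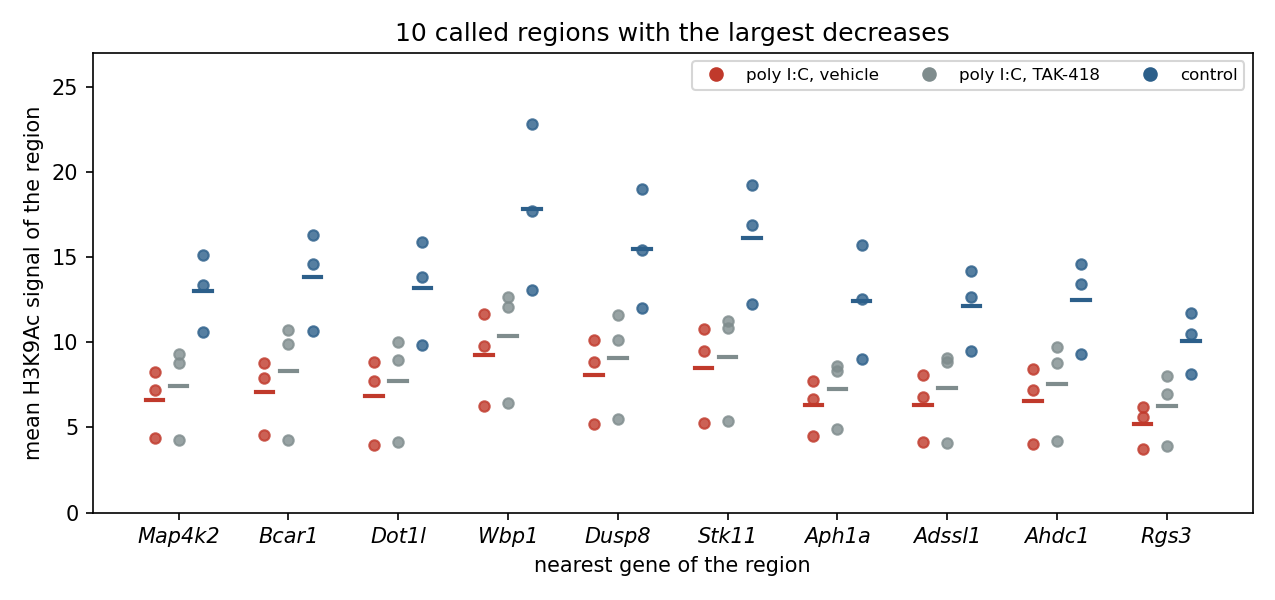
Mean H3K9Ac signal of the 10 called regions with the largest decreases, named by their nearest gene. Points are libraries and bars are group means, with poly I:C vehicle in red, poly I:C TAK-418 in grey and control in blue; every vehicle point is below every control point of its region, as at Map4k2 (at most 8.28 against at least 10.6), which the choice of regions fixed. TAK-418 points overlap vehicle in all of these regions and control at Bcar1, Dot1l and Ahdc1.

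A higher mean in the vehicle group was found in 3 regions, none of them called in the fit over all 9 libraries. The promoter of Zfp934, a zinc finger gene (chr13:62557600-62559399), had 4.91, 4.73 and 6.53 in vehicle libraries, 3.18, 2.22 and 4.00 in TAK-418 libraries and 5.47, 2.81 and 2.95 in control libraries. Its log2 change was 0.46 ± 0.22 (limma adjusted p = 0.0547), and control 1 lay inside the vehicle range. It was called higher with a replicate block (adjusted p = 0.0314), with limma run without trend and robust (0.048) and without TAK-418 3 (0.0311), and in the other alternatives its adjusted p was between 0.0566 and 0.678. The other regions, of Prrg1 and of Med23, a subunit of the Mediator complex, had changes of 0.02 and 0.00.

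To take away the shift common to all regions, each library was centred on its median. After centring, limma called 0 regions in either direction (0.0% each), with 996 at an unadjusted p under 0.05, 739 of them higher and 257 lower in the vehicle group; the smallest adjusted p was 0.602. Means were higher in the vehicle group in 6609 regions and lower in 6138. Groups did not overlap in 1145 regions that were higher (8.98%) and 1198 that were lower (9.4%). The regions with the smallest unadjusted p are named here without having passed the test. Those with higher centred values were of Zfp934 (1.00 ± 0.21), Zfp182 (0.47 ± 0.11), Zik1 (0.42 ± 0.10), all zinc finger genes, Lrrc6, a factor for assembly of motile cilia (0.41 ± 0.10), and Tmtc1, an O-mannosyltransferase (0.37 ± 0.09). Those with lower centred values were of Rnf180, a ubiquitin ligase (-0.31 ± 0.08), Zxdc, also a zinc finger gene (-0.26 ± 0.08), Gpr124, a receptor needed for brain vessel growth (-0.27 ± 0.08), Egln2, an oxygen-sensing prolyl hydroxylase (-0.31 ± 0.10), and Numbl, a regulator of Notch signalling (-0.29 ± 0.09).

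At Rnf180 (chr13:105289400-105297399) the deposited signal was 4.66, 2.60 and 4.21 in vehicle libraries, 5.07, 5.17 and 3.54 in TAK-418 libraries and 9.90, 7.20 and 5.82 in control libraries. At Zik1 (chr7:10491600-10496799) it was 6.09, 4.93 and 6.21 in vehicle libraries and 9.20, 5.99 and 4.34 in control libraries. The groups were apart at Rnf180 and overlapped at Zik1 before centring.

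The genes of the enzymes that write and remove acetylation were among those with lower signal as deposited. In the lists that follow, a region is said to have fallen only where it was called lower, and the regions that were not called also had changes below 0. Regions of histone acetyltransferases fell in 6 of 10 (60.0%), with a median change of -0.53. The region of Kat6a had 4.74, 3.12 and 4.35 in vehicle libraries and 8.19, 8.01 and 5.59 in control libraries, a change of -0.70 ± 0.23 (adjusted p = 0.032). The regions of Kat2a and Kat2b, which encode H3K9 acetyltransferases, changed by -0.71 and -0.65, and that of Kat2a lists 8 genes. The region of Crebbp, a broad acetyltransferase and co-activator, changed by -0.50 ± 0.23 (limma adjusted p = 0.0475). Regions of histone deacetylases fell in 12 of 14 (85.7%), with a median of -0.60. The largest decrease was in the region of Hdac5 (-0.81 ± 0.26), a deacetylase that shuttles out of the nucleus with neuronal activity. The Hdac5 region lists 4 genes. Over all tested regions the median was -0.53 and the share 64.0%.

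Among the LSD1 complex and the enzymes of H3K4 methylation, 14 of 15 regions fell (93.3%, median -0.61). The same values over all tested regions were 64.0% and -0.53. Kdm1a itself, the gene of LSD1 and target of TAK-418, had 4.97, 3.59 and 4.43 in vehicle libraries and 8.14, 7.03 and 5.21 in control libraries. Its change was -0.54 ± 0.23 (adjusted p = 0.0399) and -0.01 after centring. Rcor2, a corepressor partner of LSD1, changed by -0.71 and Setd1a, an H3K4 methyltransferase, by -0.76. Several regions are shared by more than 1 gene.

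Genes of the response that poly I:C sets off also had lower signal, in a table where 64.0% of all tested regions were called lower and 0.0% higher. In double-stranded RNA sensing and the interferon response 18 of 20 regions fell (90.0%, median -0.59), and in IL-6, IL-17 and STAT3 signalling 13 of 16 fell (81.3%, median -0.57). After centring none of these regions was called. Mx2, an interferon-induced antiviral GTPase, had 3.99, 2.46 and 3.43 in vehicle libraries and 7.23, 6.31 and 5.32 in control libraries, with groups apart and a change of -0.77 ± 0.22. Ticam1, the adaptor of Tlr3, changed by -0.79, Irf3, the transcription factor downstream of it, by -0.72 and Isg15 by -0.76. Tlr3, the endosomal receptor of poly I:C, was listed in the table but did not have intervals in enough libraries to be tested. In the cytokine list Cntfr changed by -0.57, Nfkb1 by -0.73, Socs3, the feedback inhibitor of STAT3, by -0.68 and Tyk2 by -0.65. Il6ra, the IL-6 receptor, changed by -0.50 ± 0.19 (adjusted p = 0.0323) while the value for Stat3, -0.49 ± 0.24, did not pass (adjusted p = 0.059).

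Immediate early and circadian clock genes were called in shares near the 64.0% of all tested regions and had medians near the -0.53 of all. Immediate early genes fell in 15 of 21 regions (71.4%, median -0.57), circadian clock genes in 12 of 18 (66.7%, median -0.57) and genes of the stress hormone axis in 12 of 12 (median -0.56). Ier2 had 8.88, 4.70 and 7.83 in vehicle libraries and 16.1, 13.8 and 9.80 in control libraries, a change of -0.82 ± 0.27. Jund changed by -0.75 and Nr4a1 by -0.70. Bdnf, a neurotrophin, changed by -0.56 (adjusted p = 0.0353), while the value for Fos, -0.49 ± 0.24, did not pass (adjusted p = 0.0561), although its vehicle values of 5.67, 4.10 and 4.79 were all below the control values of 8.89, 7.09 and 5.83. Cry2, a clock repressor, changed by -0.81, Nr1d1 by -0.76 and Nr3c1, the glucocorticoid receptor, by -0.73.

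Of the 30 lists, the largest median decreases were those of ionotropic glutamate receptors, of postsynaptic scaffolds and of voltage-gated channels, beside -0.53 over all tested regions. The share called lower over all tested regions was 64.0%. Regions of NMDA, AMPA and kainate receptor subunits fell in 13 of 16 (81.3%, median -0.64), of postsynaptic scaffolds and adhesion molecules in 21 of 23 (91.3%, median -0.64) and of voltage-gated channels in 22 of 26 (84.6%, median -0.61). Those of vesicle release fell in 16 of 22 (72.7%, median -0.58), and the difference between these lists and other regions was not tested. Shank3, a scaffold, had 6.54, 4.13 and 6.65 in vehicle libraries and 13.3, 10.7 and 7.51 in control libraries, a change of -0.76 ± 0.26. The groups were apart, and control 3 was the control library nearest to vehicle. Gria1, an AMPA receptor subunit, changed by -0.73, Cacna1b, a presynaptic calcium channel, by -0.79, and Snap25, of the vesicle fusion machinery, by -0.55 ± 0.24 (adjusted p = 0.0419).

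GABA receptor subunits fell in 6 of 14 regions (42.9%), below the 64.0% of all tested regions, with a median change of -0.50 beside -0.53. Gabbr1, a metabotropic receptor subunit, changed by -0.68 and Gabra2 by -0.62. Gabra3, an ionotropic subunit, was chosen for mention after its values were seen. It had 3.54, 3.33 and 2.59 in vehicle libraries and 4.85, 2.90 and 2.33 in control libraries, groups that overlapped. Its value was -0.04 as deposited and 0.50 ± 0.13 after centring (adjusted p = 0.602).

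In genes that most cells use, ribosomal protein regions fell in 33 of 41 (80.5%, median -0.61), those of the mitochondrial respiratory chain in 23 of 36 (63.9%, median -0.57) and those of cholesterol synthesis in 16 of 20 (80.0%, median -0.60). Of all tested regions 64.0% were called lower, with a median of -0.53. Rpl11 changed by -0.77, Sdhb, a subunit of succinate dehydrogenase, by -0.74 and Srebf1, which drives lipid synthesis genes, by -0.79. The regions of Actb, for cytoskeletal actin, and Gapdh, of glycolysis, genes often taken as constant, list 3 and 8 genes. They changed by -0.70 ± 0.26 and -0.71 ± 0.27 (limma adjusted p = 0.032 and 0.0321). After centring, the value of each was -0.17 and was not called. Autism risk regulators fell in 14 of 19 regions (73.7%, median -0.58), including Tcf20 (-0.72) and Arid1b (-0.69), a subunit of chromatin remodelling complexes. Clustered histone genes fell in 6 of 11 regions (54.5%, median -0.50), including that of Hist1h2ac (-0.57).

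Hox genes and other developmental transcription factors, classical Polycomb targets, had the smallest median changes of the lists. Over all tested regions the median was -0.53 and 64.0% were called lower. Regions of the factors outside Hox fell in 18 of 25 (72.0%) with a median of -0.36, and the median was 0.17 after centring but 0.01 after quantile normalization. Hox genes had 2 tested regions, 1 of which fell, with changes of -0.32 and -0.18. Six3, a forebrain factor, had 2.24, 1.72 and 1.94 in vehicle libraries and 3.19, 2.92 and 2.35 in control libraries, a change of -0.36 ± 0.13. These values approach the level of regions with no interval, where the added 1 weighs most.

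Every list of cell type markers had a median below 0, as did all other lists. Over all tested regions, 64.0% were called lower and the median was -0.53. All 18 genes of the cortical excitatory neuron list lay in tested regions. Regions of cortical excitatory neuron markers fell in 12 of 18 (66.7%, median -0.52), of inhibitory interneuron markers in 12 of 14 (85.7%, median -0.50), of astrocyte markers in 10 of 12 (83.3%, median -0.53), of oligodendrocyte lineage markers in 11 of 14 (78.6%, median -0.58), of microglia markers in 5 of 6 (83.3%, median -0.54) and of endothelial and mural markers in 6 of 7 (85.7%, median -0.59). Sox10, the transcription factor of oligodendrocytes, had 6.62, 3.59 and 5.51 in vehicle libraries and 11.6, 9.92 and 7.77 in control libraries, a change of -0.80 ± 0.25. Camk2a, a kinase of excitatory neurons, changed by -0.67, Aldh1l1, an astrocyte enzyme, by -0.61, Cx3cr1, the fractalkine receptor of microglia, by -0.48 and Pvalb, a calcium-binding protein of interneurons, by -0.55. Slc17a7, the vesicular glutamate transporter, lies in a region of 19 listed genes that changed by -0.63, while the value for Gad1, the GABA-synthesising enzyme, -0.41 ± 0.21, did not pass (adjusted p = 0.0637).

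Some markers of neighbouring tissue also lay in tested regions, of which 64.0% in all were called lower with a median of -0.53. Choroid plexus and ependyma markers fell in 4 of 5 regions (80.0%, median -0.48), striatum markers in 5 of 7 (71.4%, median -0.55), hippocampus markers in 5 of 7 (71.4%, median -0.55) and meninges and blood markers in 3 of 3 (median -0.57). Their summed signal was 21.1, 13.6 and 19.6 in vehicle and 33.0, 29.1 and 22.7 in control libraries for choroid plexus, and 30.8, 20.6 and 27.7 in vehicle and 54.3, 39.4 and 32.6 in control libraries for striatum. For hippocampus it was 29.4, 19.1 and 26.4 in vehicle and 47.9, 41.6 and 31.4 in control libraries, and for meninges and blood 10.3, 6.56 and 9.00 in vehicle and 15.5, 16.1 and 11.9 in control libraries. Vehicle 2 was lowest in all 4 lists and control 1 highest in all but the last. Of their defining markers, Drd2 of striatum was listed without enough intervals, and Ttr of choroid plexus was not analysed here. The part of tissue makeup in the result was not tested. After centring, 0 regions of any of the 30 lists were called.

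**Figure D4:**
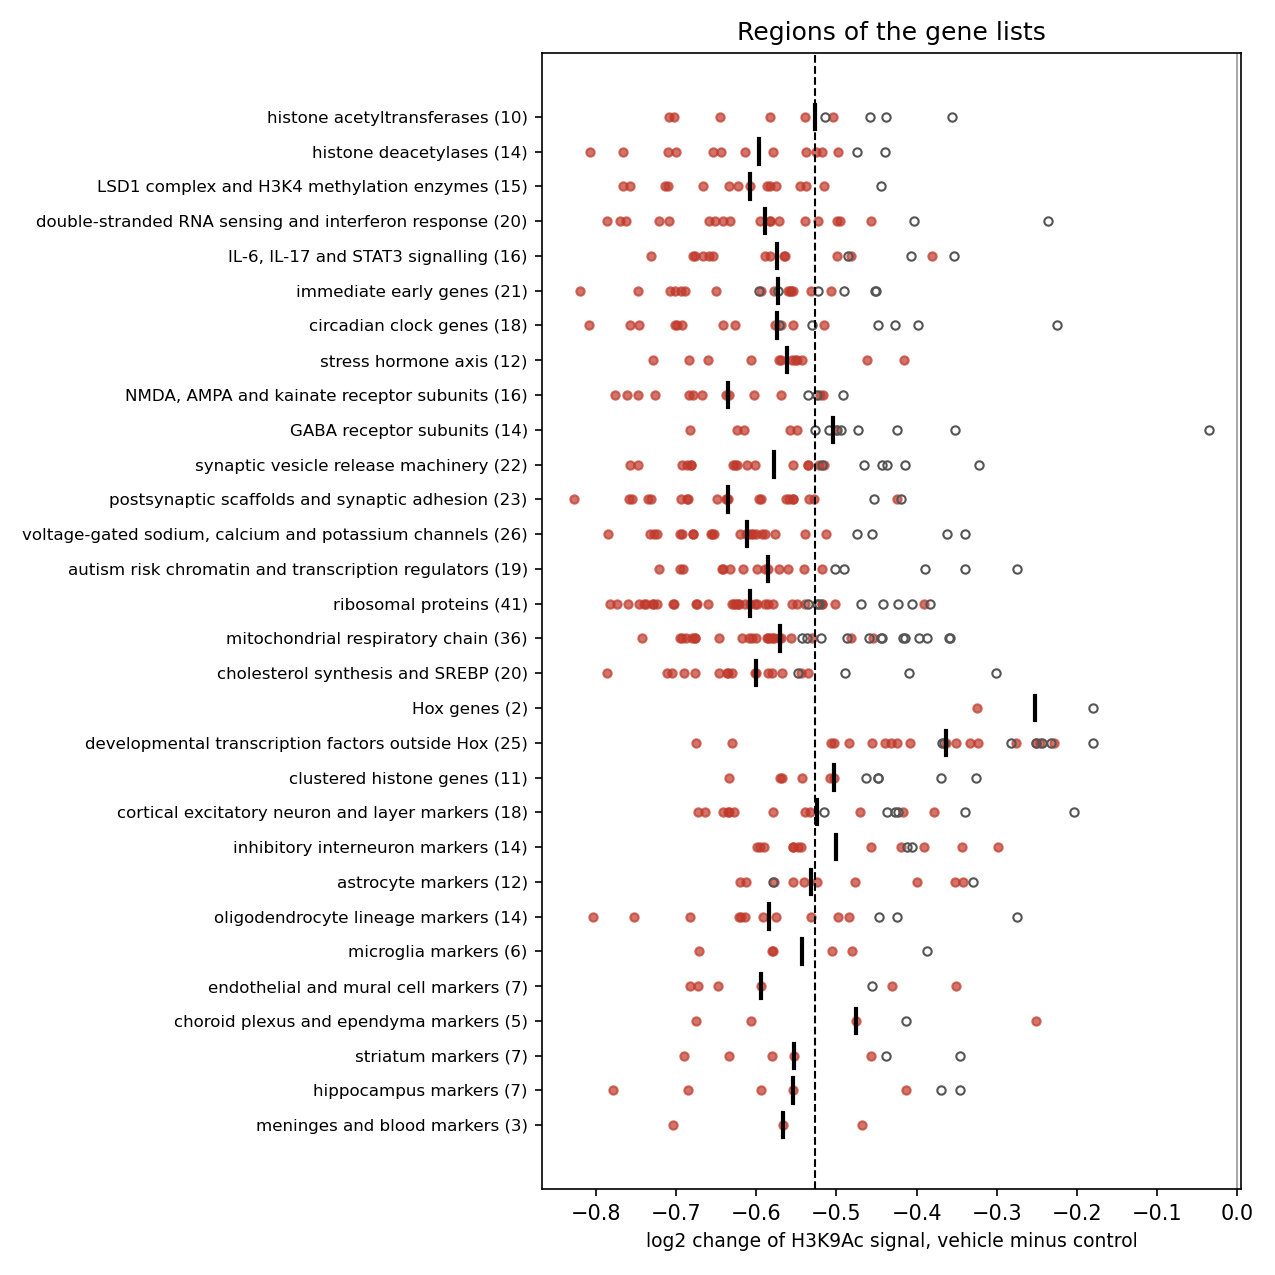
Log2 change of H3K9Ac signal (poly I:C vehicle minus control, as deposited) for the regions of each gene list, with the number of regions in parentheses. Filled red points were called at an adjusted p under 0.05, open points were not, short bars are list medians and the dashed line is the median of all tested regions (-0.53); list medians lie between -0.64 and -0.25, and all points are below 0.

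The median change spanned a wider range over region lengths than over region classes, a difference that was not tested. The median change was -0.36 in regions up to 4 kb, -0.44 from 4 to 8 kb, -0.52 from 8 to 16 kb, -0.56 from 16 to 32 kb and -0.60 over 32 kb, and the share called lower was 24.3%, 32.2%, 57.4%, 80.1% and 92.6%. The order did not separate the groups library by library. The median of regions over 32 kb minus that of regions of 4 to 8 kb was -0.08, -0.36 and -0.11 in vehicle libraries, 0.01, 0.13 and -0.35 in TAK-418 libraries and -0.17, 0.16 and 0.02 in control libraries. Vehicle 2 and TAK-418 3 had the lowest differences and also the lowest total signal, but control 1, with the highest total signal, came next, and the groups overlapped.

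By class, promoters with a CpG island (8445 regions) had a median change of -0.53 and promoters without one (1369) of -0.49. It was -0.54 in regions that list a gene but hold no promoter (2182) and -0.46 in intergenic regions (751). The share called lower was 61.5%, 59.5%, 80.3% and 53.8%. A region that lists a gene may lie beside it rather than inside it, as at Thap1. The test used another measure: per library, the median signal of promoters with a CpG island minus that of another class, on the log2 scale. Vehicle minus control of this measure was -0.05 for promoters without an island, -0.004 for regions with a gene but no promoter and -0.06 for intergenic regions. Exact permutation tests gave p = 0.3, 1.0 and 0.3 (0.45, 1.0 and 0.45 adjusted over the 3 comparisons). By level, with regions ranked by mean signal and cut into 5 equal parts, the median change was -0.45 in the lowest part and -0.57 in the highest. The share called lower ran the other way, at 71.6% in the lowest part and 53.9% in the highest. The 1 added before the logarithm makes changes at low signal look smaller.

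**Figure D5:**
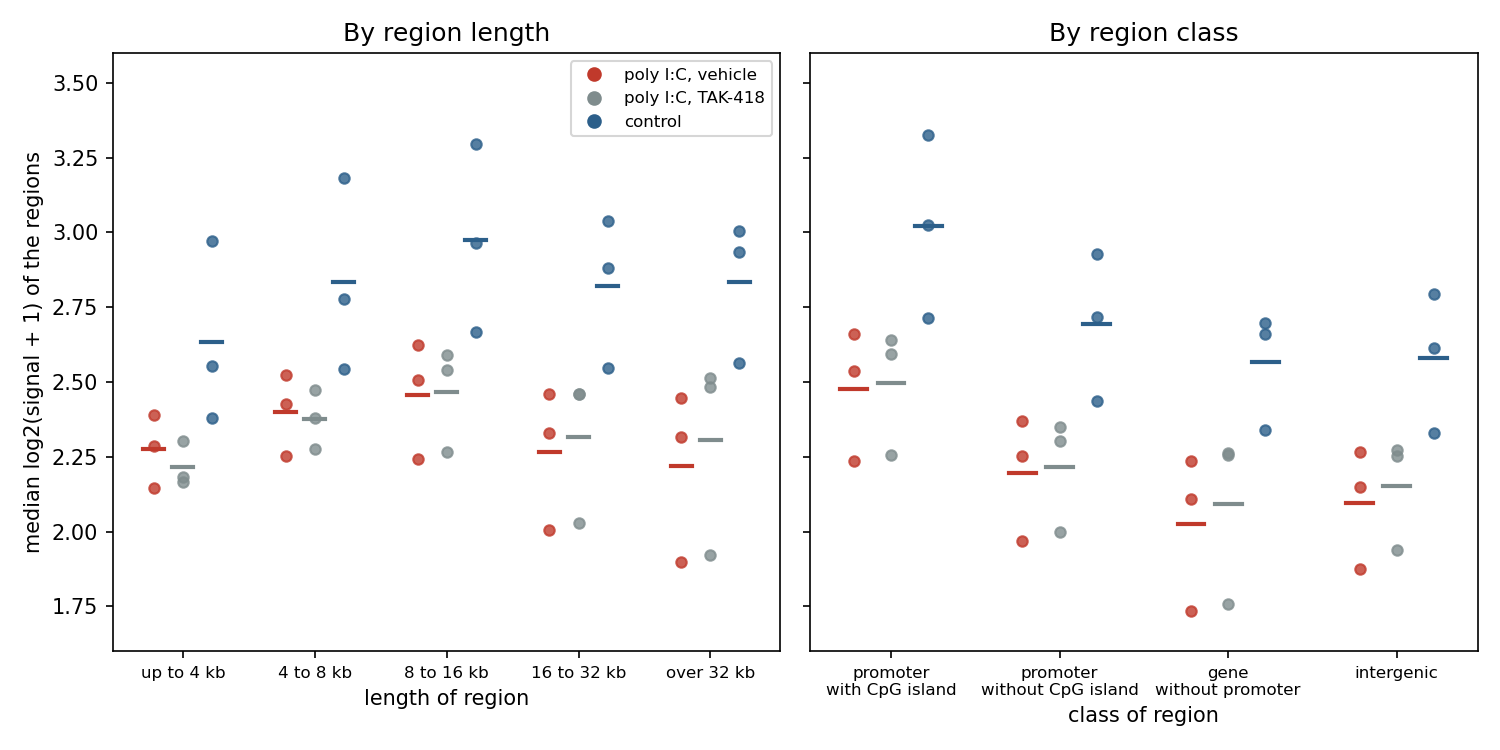
Median log2(signal + 1) of tested regions per library by region length (left) and by class (right); points are libraries and bars are group means, in red for poly I:C vehicle, grey for poly I:C TAK-418 and blue for control. Vehicle minus control of the group means is -0.360 in regions up to 4 kb and -0.615 over 32 kb, and in each class the vehicle points lie below the control points.

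Whether an interval was called changed sides completely in few regions. An interval was called in all 6 libraries of the comparison in 9570 regions, in 0 vehicle and 3 control libraries in 336 regions and in 3 vehicle and 0 control libraries in 7 regions. Of the 336, 223 listed a gene but held no promoter, and TAK-418 libraries had no interval in 61 of the 336. Their median signal was 2.82 in vehicle and 4.70 in control libraries, low in the table. Examples taken by the highest control signal, after the values were seen, were a region inside Mical3, an actin-oxidising enzyme (5.12, 2.95 and 4.58 in vehicle and 8.49, 9.39 and 6.47 in control libraries), the promoter of Cpt2, an enzyme of mitochondrial fatty acid import (4.80, 3.36 and 4.45 in vehicle and 7.42, 7.10 and 4.88 in control libraries), and a region inside Arhgap44 (3.90, 2.37 and 3.99 in vehicle and 6.61, 6.79 and 5.40 in control libraries). After centring, the value at Cpt2 was 0.02.

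The 7 regions with the opposite pattern went against their own signal. They were the regions of Stk11, Jsrp1, Ppp2r5b, LOC101055740, Ntmt1, Psrc1 and Il4i1, all holding promoters with CpG islands. Their median signal was 5.42 in vehicle and 9.63 in control libraries: no interval was listed in the control libraries, although the signal there was higher. At Wbp1, one of the strongest regions of the table, an interval was listed in 1 vehicle and 1 control library. At Dot1l it was listed in 1 vehicle and 0 control libraries. Each of these regions met the filter only with intervals in TAK-418 libraries. How an interval was assigned to a merged region is not given in the sources used here.

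H3K4me3, measured in other libraries of the same groups, also had lower values in the vehicle group. Over the 11040 regions tested for both marks, the median change was -0.52 for H3K9Ac and -0.48 for H3K4me3. Without control 1 it was -0.37 for H3K9Ac and -0.21 for H3K4me3, so how near the values of the marks are depends on that library. The summed H3K4me3 signal was 96043.1, 80930.9 and 86596.1 in vehicle libraries and 192447.7, 106921.8 and 99708.0 in control libraries, a ratio of 0.660 (exact p = 0.1). Control 1 was the highest library for both marks, and vehicle 2 the lowest of the libraries compared for both. In 1 model over both marks, limma called 0 regions (0.0%) whose change differed between marks, with 7 at an unadjusted p under 0.05. Far fewer regions reached that level than the threshold alone would pass if no region differed. The model took the libraries of the marks as independent, although control 1 was highest for both. Its 0 calls therefore do not show that the marks changed alike. After centring each mark limma again called 0, with 530 at an unadjusted p under 0.05. For H3K4me3 alone it called 0 of 12439 regions (0.0%), with 4874 at an unadjusted p under 0.05 and a smallest adjusted p of 0.127.

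The regions that came nearest to a difference between marks are named without having passed (adjusted p = 0.916 for each). A more positive centred change in H3K9Ac than in H3K4me3 was seen at Tstd3 (0.46 ± 0.11), Cbln2, a synaptic organiser (0.37 ± 0.10), Syt10 (0.48 ± 0.13), Slc16a10, an aromatic amino acid transporter (0.45 ± 0.12), and Ism2 (0.37 ± 0.10). A more negative one was seen at Thap1, a zinc finger transcription factor (-0.51 ± 0.11), Myo1d (-0.44 ± 0.11), Adi1 (-0.39 ± 0.11), Dguok, a mitochondrial nucleoside kinase (-0.34 ± 0.10), and Lhfpl3 (-0.56 ± 0.17). At Thap1 the H3K9Ac signal was 3.58, 2.79 and 3.17 in vehicle libraries and 6.05, 5.82 and 4.25 in control libraries, with the groups apart, while the H3K4me3 signal was 3.37, 2.53 and 2.85 in vehicle libraries and 4.40, 2.50 and 2.46 in control libraries, with the groups overlapping.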

How the data were processed

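H3K9Ac ChIP-seq of fixed, frozen mouse cortex was analysed, with 30 ug of chromatin per immunoprecipitation per the labels' protocols. Reads were aligned with BWA 0.7.12 per the submitters' processing notes, and region coordinates are mm10. The authors deposited signal over merged regions (mean and highest signal per region and library, per the file headers) and, as another column, whether an interval was called. No source used here names the peak caller, the bin width or how libraries were scaled. A tag in the library names is not explained, so scaling is as deposited. The table holds no read counts, so the depth is unknown and counting intervals could not be given. All columns of libraries were matched by name (0 unmatched).

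The regions and gene lists were chosen with earlier results of these data known. limma 3.58.1 (R 4.3.3; trend and robust) was fitted to log2(mean signal + 1) of all 12747 regions over 9 libraries, with Benjamini-Hochberg adjustment over all of them and a threshold of 0.05. The fit was repeated after median centring of each library. Single values were compared with exact two-sided permutation tests (scipy 1.17.1). The steps were tested on simulated data. A shift of whole libraries was simulated only for the centred fit, so the simulation did not test the calls as deposited under such a shift. Alternatives were other pseudocounts, filters, scalings, the highest signal, a replicate block and leaving out each library. Named regions were, per scaling, the 10 called regions of largest change in each direction without overlap of groups, in the upper 75% by level and listing a named gene, or the 5 of smallest p where none passed; the 4 of smallest p in each list; and preset genes. Names are the nearest gene listed by the table, and a region may list several. In the lists and preset genes, each gene took the tested region nearest its start. Sequences of the regions were not used here. Some genes that the rule names are not reported here.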

Additional observations from a re-analysis of the deposited data

How the results depend on the processing

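The decrease kept its direction in the summed signal under every alternative run: the ratio was 0.727 over all regions of the table, 0.617 weighted by length, 0.640 for the median region and 0.577 to 0.728 leaving out 1 library. The number of regions called did not keep. Leaving out 1 library gave 0 to 11882 regions as deposited; with no interval filter it was 4 of 60110, with only the 6 libraries compared 4776, and with the highest signal 1. After centring it was 0 in all alternatives except the highest signal, which gave 1. Pseudocounts of 0.5 and 0.1 gave 7942 and 7694. Same-numbered vehicle and control libraries had correlations of -0.25, -0.47 and -0.0047 between their deviations from group means. Deviations within a group of 3 sum to 0 and so constrain these values. They cannot decide whether the numbers pair the libraries. The fit with a replicate block called 10634 regions as deposited, 10633 lower and 1, that of Zfp934, higher, and 0 after centring. The blocked ratio was 0.647 (exact sign-flip p = 0.25), and 0 regions were called as differing between marks. The tested difference between promoters with a CpG island and regions with a gene but no promoter changed sign. It was -0.00425 in the report, 0.0154 with a pseudocount of 0.5, 0.0117 with an interval in at least 6 of 9 libraries and -0.0496 to 0.0818 leaving out 1 library. Leaving out 1 library moved Prrg1 between -0.19 and 0.21 and Med23 between -0.16 and 0.22; Prrg1 was -0.15 with the highest signal, and centred Tmtc1 was -0.02 with no filter. The cause of these changes was not tested. With an interval required in at least 6 of 9 libraries, 7 of the 10 named decreases kept their call. The regions of Dot1l, Wbp1 and Stk11 did not meet that filter and were not tested there. All 10 named decreases lost their call with the highest signal, with no interval filter, after median centring or quantile normalization, and without vehicle 2, vehicle 3, control 1, control 2 or TAK-418 2. Their changes, -0.91 to -0.85 in the report, were the same with no interval filter and without TAK-418 2 (adjusted p = 0.0998 and 0.0506), and were -1.16 to -0.43 with the highest signal, -0.68 to -0.59 without vehicle 2 and -0.37 to -0.32 after centring. Depth is unknown, so what it limits could not be given.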

Other observations

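The regions with the highest control H3K9Ac included promoters of genes used by neurons. These regions were picked by their control values, which enter the change itself and tilt it downward. Their changes are therefore not a separate result. Prrt2, a presynaptic protein whose loss causes paroxysmal movement disorders, had 13.8, 8.49 and 12.6 in vehicle libraries and 25.8, 20.0 and 14.4 in control libraries. Mapt, the microtubule protein tau, had 12.5, 7.81 and 10.6 in vehicle libraries and 24.2, 17.4 and 13.4 in control libraries, a change of -0.76 ± 0.30 (limma adjusted p = 0.033). Map1a, another microtubule protein, changed by -0.76 and Dusp6, a phosphatase of ERK, by -0.69. Not all of the strongest regions passed: Mex3b, an RNA-binding protein gene, had 12.3, 10.6 and 12.2 in vehicle libraries and 23.8, 15.2 and 13.4 in control libraries, a change of -0.50 ± 0.30 (adjusted p = 0.109).

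Regions whose nearest gene has a name of the form Zfp and a number were picked out after the values were seen. There were 259 of them, and 97 (37.5%) were called lower as deposited, beside 8062 of the other 12488 (64.6%). Their median change was -0.45, beside -0.53 in the others. After centring the median change was 0.08, and 192 of the 259 were above 0, beside 6417 of the other 12488. The centred median of these regions was -0.02, 0.10 and 0.03 in vehicle libraries, -0.05, -0.08 and 0.09 in TAK-418 libraries and 0.01, -0.04 and -0.04 in control libraries, so the groups overlapped and vehicle 2 and TAK-418 3 were highest. Their median length was 11199 bp, beside 13599 bp for the others.

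The 467 regions on the X chromosome had a median change of -0.43, with 37.9% called lower, beside -0.53 and 65.0% on the autosomes. X regions were shorter, with a median of 5799 bp beside 13999 bp.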
